A study of Homo sapiens with 6 samples.

Results

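Fatty acid synthesis and desaturation was followed through 10 genes, SREBF1, ACLY, ACACA, FASN, SCD, ELOVL5, ELOVL6, FADS1, FADS2 and ACSL3. They were chosen by their symbols for their roles in the pathway, and they are 10 of the 58884 rows of the expression table, with 1 row for each symbol. RNA sequencing of cultured esophageal squamous cell carcinoma cells gave 3 libraries of KYSE450 and 3 libraries of KEAP1null-KYSE450. KYSE450 is an established human line with wild-type NRF2 and intact KEAP1, and KEAP1null-KYSE450 is a single clone derived from those cells by CRISPR-Cas9 editing with a guide in KEAP1. No treatment is given for either line, and both were kept in RPMI1640 medium with fetal bovine serum. Since 1 clone was compared with its parental line, loss of KEAP1 and any other difference carried by the clone cannot be told apart. The libraries are numbered here by column order within a line, and the labels do not say whether they came from separate cultures, so the p-values measure only the spread between libraries.

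Cells build fatty acids in the cytosol from citrate. ACLY splits citrate into acetyl-CoA, ACACA carboxylates acetyl-CoA to malonyl-CoA, and FASN joins these units into palmitate with NADPH as the reductant. Elongases then lengthen the chain and desaturases introduce double bonds, and acyl-CoA synthetases activate fatty acids for use in lipids. SREBP-1, the product of SREBF1, is a transcription factor held in the endoplasmic reticulum that drives the genes of this pathway once it has been cleaved. KEAP1 targets the transcription factor NRF2, the product of NFE2L2, for degradation, and NRF2 is known for driving antioxidant genes and genes that make NADPH.

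Of the 10 genes, 6 were lower in KEAP1null-KYSE450 cells, 2 were higher, and 2 did not pass the test. The level of SREBF1 showed the largest difference of the 10, with 0.51 times the parental level, and those of ACLY, FASN, SCD, ELOVL5 and ACSL3 were between 0.63 and 0.78 times. The desaturases FADS1 and FADS2 rose to 1.39 and 1.77 times that level, while ACACA and ELOVL6 did not reach the threshold. A gene passed at an adjusted p under 0.05 from limma, a linear model fitted to all 16701 genes averaging 10 normalized counts or more, with Benjamini-Hochberg adjustment over those genes. At that threshold 25.5% of all tested genes were lower in KEAP1null-KYSE450 cells and 24.3% were higher, 49.8% in all. All of the 10 genes averaged more than 100. With a minimum mean of 100, 3931 of 12341 genes were lower and 2784 higher, and again 6 and 2 of the 10. None of the 10 genes also reached a log2 fold change of 1 in either direction, against 18.2% of tested genes, 12.2% higher and 5.98% lower. At an unadjusted p under 0.05 in limma, 7 were lower and 2 higher, still with 0 past that fold change, and edgeR and DESeq2 on the recovered reads of 4 libraries also placed 0 past both thresholds. On those reads both tools called 3 of the 10 genes lower, without SCD, ELOVL5 and ACSL3, and the same 2 higher. All fold changes are on the scale of log2(normalized count + 1), with KEAP1null-KYSE450 against KYSE450, so a negative value is a lower level in the clone. The median of the 10 log2 fold changes was -0.43, beside 0.0041 for all tested genes and -0.15 for the 7758 highly expressed genes, those averaging 1000 normalized counts or more, whose middle 50% lay between -0.42 and 0.14.

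The libraries had similar totals, between 54829300 and 57380200 normalized counts. Normalized counts are reads divided by a size factor of each library, and at this depth 3 reads correspond to 2.77 to 3.21 normalized counts, far below the counts of the 10 genes. KEAP1 mRNA, the target of the guide, was at 5760, 5226 and 5146 normalized counts in KYSE450 and at 5737, 4906 and 5317 in KEAP1null-KYSE450. With a log2 fold change of -0.017 (limma adjusted p = 0.90), counts at the targeted gene overlapped between the lines, and counts cannot show an edit. NFE2L2 mRNA was lower, with a log2 fold change of -0.47 (limma adjusted p = 0.00063). All 10 squamous epithelial markers examined were expressed in every library, and 9 of them differed, with the keratin KRT5 at a log2 fold change of 1.46 and KRT6A, KRT14 and KRT17 between -4.70 and -6.09. Of 14 markers of fibroblasts, blood, endothelium, adipocytes and liver, 12 fell below the minimum mean, 7 were at or below 3 reads in all libraries, and 3 were at 0, PECAM1, ADIPOQ and LEP. The summed level of these 14 markers was 660 to 895 in KYSE450 and 390 to 501 in KEAP1null-KYSE450, most of it COL1A1. In bulk RNA, fewer cells of a type and less RNA per cell cannot be told apart.

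Library 1 of each line stood high for fatty acid genes, though not for these genes alone. KYSE450 library 1 was the highest of its line in 9 of the 10 genes, against 49.7% of the highly expressed genes, and KEAP1null-KYSE450 library 1 was the highest in 10 of 10, against 54.4%. The median deviation of the 10 genes from their line mean was 0.22 on the log2 scale in the first and 0.23 in the second, compared with 0.031 and 0.048 for the highly expressed genes. Summed levels of the 10 squamous markers were also highest in library 1, at 498188, 414732 and 373954 in KYSE450. In KEAP1null-KYSE450 they were 751088, 618359 and 600476. For the uptake, binding and activation genes listed below, the sum was instead lowest in library 1 of each line (22568 and 19793). The part of library 1 in the differences was measured by leaving it out. Without KYSE450 library 1, 6 genes were lower and 2 higher, with SREBF1 at a log2 fold change of -0.80 and FADS2 at 1.09. Without KEAP1null-KYSE450 library 1, 7 were lower and 2 higher, with SREBF1 at -1.08 and FADS2 at 0.67.

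**Figure D1:**
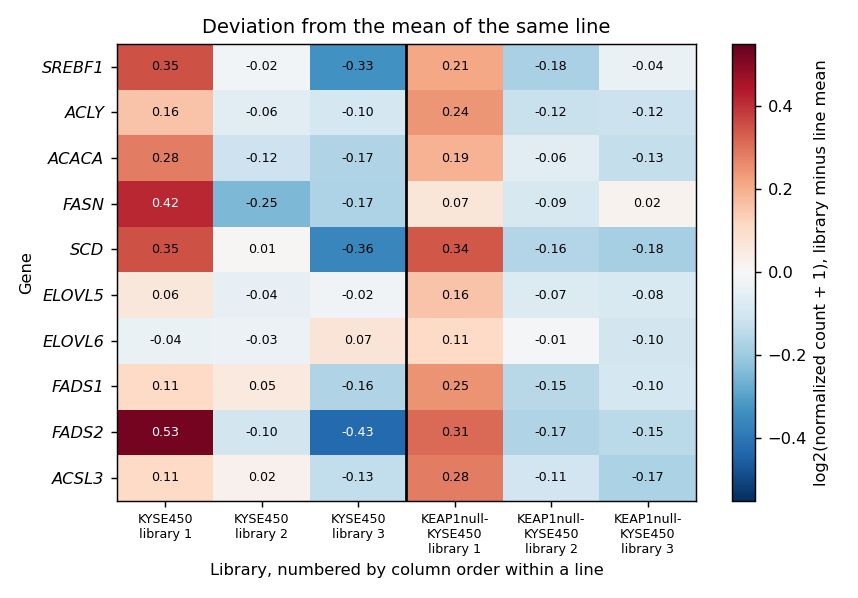
Heatmap of the deviation of each library from the mean of its own line, on the log2(normalized count + 1) scale, for the 10 fatty acid genes. Red is above and blue below the line mean, and library 1 of both lines is red for nearly all fatty acid genes, with ELOVL6 in KYSE450 library 1 at -0.04 as the exception.

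Promoter sequences are shown for SREBF1, for ACLY and SCD as enzymes that were lower, and for FADS1 and FADS2, so that the control regions of the genes that fell and of those that rose can be read side by side. Each run holds 250 bases before and 50 bases from the start of transcription, taken from RefSeq on GRCh38.p14 and written 5′ to 3′ on the strand of the gene. Of the 10 genes, 9 matched an entry, all but FASN, whose promoter was not searched. Capitals mark matches, on either strand, to any of the 5 motifs searched: TCACNCCAC (a core of the sterol response element bound by SREBPs), CCAAT (the CCAAT box), CACGTG (an E-box), GGGCGG (a GC box) and the core of the antioxidant response element bound by NRF2. The first 3 promoters belong to genes that were lower in KEAP1null-KYSE450 cells, on the minus strand for SREBF1 (chr17:17836937-17837236), the minus strand for ACLY (chr17:41918973-41919272) and the plus strand for SCD (chr10:100346983-100347282).
SREBF1: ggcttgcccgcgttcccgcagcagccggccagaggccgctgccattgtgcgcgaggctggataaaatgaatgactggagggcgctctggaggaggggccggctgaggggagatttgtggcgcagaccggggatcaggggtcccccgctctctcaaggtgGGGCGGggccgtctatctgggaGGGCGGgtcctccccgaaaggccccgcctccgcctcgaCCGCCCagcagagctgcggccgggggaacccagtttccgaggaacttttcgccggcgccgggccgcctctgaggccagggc
ACLY: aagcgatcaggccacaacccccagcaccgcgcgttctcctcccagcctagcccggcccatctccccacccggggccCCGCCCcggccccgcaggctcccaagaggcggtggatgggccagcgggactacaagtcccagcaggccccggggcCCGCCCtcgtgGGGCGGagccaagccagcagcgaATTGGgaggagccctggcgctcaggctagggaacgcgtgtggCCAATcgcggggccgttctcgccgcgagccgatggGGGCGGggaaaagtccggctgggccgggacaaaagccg
SCD: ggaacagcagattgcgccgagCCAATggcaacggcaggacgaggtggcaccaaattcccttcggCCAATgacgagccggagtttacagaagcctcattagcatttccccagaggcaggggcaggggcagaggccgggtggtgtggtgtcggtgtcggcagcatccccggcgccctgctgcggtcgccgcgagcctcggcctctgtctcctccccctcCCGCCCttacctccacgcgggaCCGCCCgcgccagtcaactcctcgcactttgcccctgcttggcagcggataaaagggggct

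The other promoters shown belong to the genes that were higher, FADS1 on the minus strand (chr11:61816954-61817253) and FADS2 on the plus strand (chr11:61815953-61816252).
FADS1: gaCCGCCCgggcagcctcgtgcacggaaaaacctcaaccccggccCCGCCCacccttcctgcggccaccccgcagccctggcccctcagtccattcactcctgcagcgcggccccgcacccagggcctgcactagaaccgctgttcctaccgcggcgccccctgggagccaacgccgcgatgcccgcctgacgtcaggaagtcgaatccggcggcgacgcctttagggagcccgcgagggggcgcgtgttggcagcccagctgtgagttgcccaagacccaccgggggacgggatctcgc
FADS2: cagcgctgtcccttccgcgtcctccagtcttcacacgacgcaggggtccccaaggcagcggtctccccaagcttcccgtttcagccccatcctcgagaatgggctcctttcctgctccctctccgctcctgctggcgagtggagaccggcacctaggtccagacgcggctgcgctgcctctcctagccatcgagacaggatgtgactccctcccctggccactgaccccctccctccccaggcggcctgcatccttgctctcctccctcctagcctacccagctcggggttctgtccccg

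The GC box was found in 7 of the 9 promoters, all but those of ELOVL5 and FADS2, and in 44.6% of all 27305 promoters of the same length. The CCAAT box was found in 4, those of ACLY, SCD, ELOVL5 and ACSL3, and in 35.7% of all promoters. The promoters of SREBF1, FADS1 and FADS2 held no CCAAT box in this window, and that of FADS2 held none of the 5 motifs. The E-box was found in the ELOVL5 promoter alone, against 7.43% of all promoters. No match to TCACNCCAC (1.15% of all promoters) or to the antioxidant response element core (3.26%) lay in the 9 windows, which says only that these letters are not in them.

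SREBF1 encodes SREBP-1, the regulator of the pathway (hg38 chromosome 17, 17810399 to 17837002, minus strand). Its normalized counts were 18005, 13944 and 11186 in KYSE450 and 8306, 6336 and 6987 in KEAP1null-KYSE450. The highest library of the clone lay below the lowest of the parental line, as it did for 29.3% of all tested genes, 57.8% not overlapping in one direction or the other. The log2 fold change was -0.98 (standard error 0.15, 95% confidence interval -1.31 to -0.64, limma adjusted p = 0.00022), just short of a log2 fold change of 1. It passed that mark when KYSE450 library 3 (-1.15) or KEAP1null-KYSE450 library 1 (-1.08) was left out. Counts per gene do not separate the isoforms of SREBP-1. RAI1 overlaps SREBF1 on the opposite strand at 33% of its level and had a log2 fold change of -0.34, and whether counting used the strand is not given in the sources used here.

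SREBF2, the gene of the related factor SREBP-2 that chiefly drives cholesterol synthesis, had normalized counts of 7742, 5645 and 4861 in KYSE450 and 6736, 4658 and 4759 in KEAP1null-KYSE450. Its log2 fold change was -0.17 (limma adjusted p = 0.43), and its libraries overlapped between the lines. The ratio of SREBF1 to SREBF2 within a library, which does not depend on the scaling between libraries, was 2.33, 2.47 and 2.30 in KYSE450 and 1.23, 1.36 and 1.47 in KEAP1null-KYSE450. The ratios did not overlap, and their log2 difference was -0.81 (exact permutation test, two-sided p = 0.1, the smallest that 3 against 3 libraries can give, 0.2 after Benjamini-Hochberg adjustment over 4 ratios).

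The enzymes that make palmitate came next. ACLY (chromosome 17, 41866917 to 41930542, minus strand) had normalized counts of 29753, 25603 and 24932 in KYSE450 and 20403, 15840 and 15920 in KEAP1null-KYSE450. The lines did not overlap, and the log2 fold change came to -0.63 (standard error 0.12, limma adjusted p = 0.00087). FASN, the fatty acid synthase (chromosome 17, 82078338 to 82098294, minus strand), had normalized counts of 38596, 24402 and 25698 in KYSE450 and 19244, 17263 and 18625 in KEAP1null-KYSE450. Every library of the clone was again below every parental library, and KYSE450 library 1 stood well above the others of its line. FASN differed by a log2 fold change of -0.66 (standard error 0.15, limma adjusted p = 0.0029), or -0.45 without KYSE450 library 1.

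ACACA encodes acetyl-CoA carboxylase alpha, the step between ACLY and FASN, and spans 37084992 to 37406836 of chromosome 17 (minus strand). Its normalized counts were 15771, 11972 and 11549 in KYSE450 and 12195, 10205 and 9748 in KEAP1null-KYSE450, so library 1 of the clone reached above libraries 2 and 3 of the parental line. ACACA came to a log2 fold change of -0.28 (standard error 0.13, 95% confidence interval -0.56 to -0.0030, limma adjusted p = 0.086). It passed the threshold when KYSE450 library 3 (-0.37, limma adjusted p = 0.043) or KEAP1null-KYSE450 library 1 (-0.38, limma adjusted p = 0.035) was left out.

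**Figure D2:**
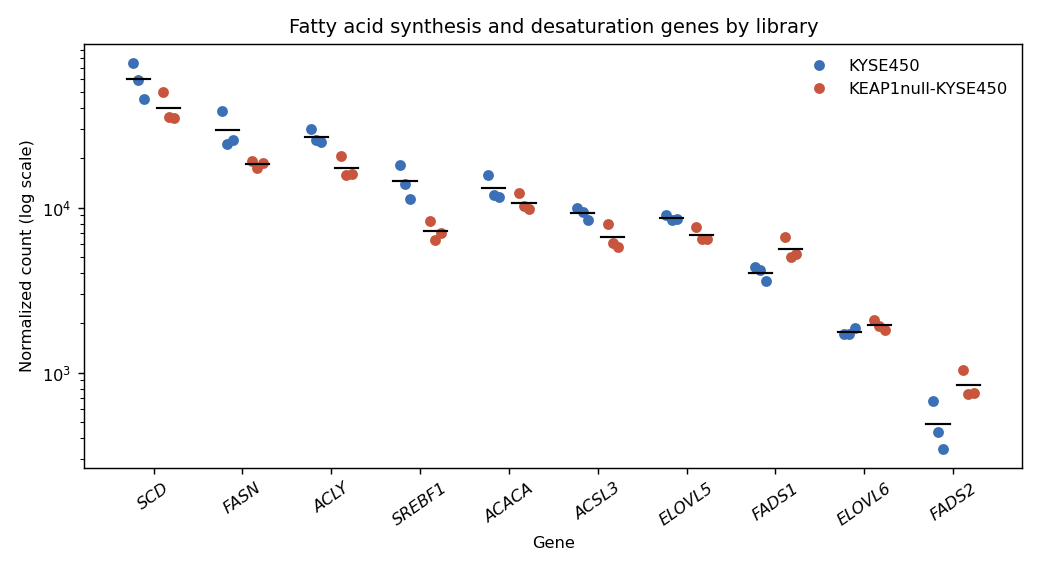
Normalized count (log scale) of the 10 fatty acid genes in the 3 KYSE450 libraries (blue) and the 3 KEAP1null-KYSE450 libraries (red), 1 point for each library, with the mean of each line as a black bar. SREBF1, ACLY, FASN, ELOVL5 and ACSL3 are lower in every library of the clone, FADS1 and FADS2 are higher in every library, and the lines overlap for SCD, ACACA and ELOVL6.

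SCD, stearoyl-CoA desaturase, places the double bond that turns stearate into oleate (chromosome 10, 100347233 to 100364826, plus strand). Its normalized counts were 74757, 58969 and 45696 in KYSE450 and 50107, 35344 and 34855 in KEAP1null-KYSE450. The parental libraries spread widely, and the lowest of them lay below library 1 of the clone. For SCD the log2 fold change was -0.57 (standard error 0.18, 95% confidence interval -0.95 to -0.18, limma adjusted p = 0.018). The call was lost in 6 of 16 other settings, with limma adjusted p = 0.051 to 0.088 when KYSE450 library 2, KEAP1null-KYSE450 library 2 or KEAP1null-KYSE450 library 3 was left out. It was also lost when the spread was not modelled on the mean level (limma adjusted p = 0.097). On the recovered reads of 4 libraries it was lost in edgeR (adjusted p = 0.16) and in DESeq2. The ratio of SCD to FASN was 1.94, 2.42 and 1.78 in KYSE450 and 2.6, 2.05 and 1.87 in KEAP1null-KYSE450, with a log2 difference of 0.087 (exact permutation test, two-sided p = 0.6). These ratios overlapped.

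The elongases are split by substrate. ELOVL6 lengthens palmitate to stearate, and its normalized counts were 1716, 1720 and 1852 in KYSE450 and 2089, 1927 and 1807 in KEAP1null-KYSE450 (chromosome 4, 110045846 to 110199199, minus strand). With overlapping libraries, its log2 fold change was 0.14 (standard error 0.10, 95% confidence interval -0.080 to 0.35, limma adjusted p = 0.27). ELOVL5 lengthens polyunsaturated fatty acids and had normalized counts of 9057, 8422 and 8568 in KYSE450 and 7599, 6463 and 6423 in KEAP1null-KYSE450 (chromosome 6, 53267398 to 53349179, minus strand). The parental libraries were close together and all above the clone. The difference was -0.35 on the log2 scale (standard error 0.096, limma adjusted p = 0.0092), which lost its call in 5 of 16 other settings and was -0.17 after quantile normalization. The ratio of ELOVL5 to ELOVL6 was 5.28, 4.90 and 4.63 in KYSE450 and 3.64, 3.35 and 3.56 in KEAP1null-KYSE450. The ratios of the lines did not overlap, with a log2 difference of -0.49 (exact permutation test, two-sided p = 0.1, the smallest possible, 0.2 after adjustment).

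FADS1 and FADS2, the delta-5 and delta-6 desaturases of polyunsaturated fatty acid synthesis, were the genes of the pathway that rose. FADS1 had normalized counts of 4342, 4179 and 3589 in KYSE450 and 6637, 5043 and 5241 in KEAP1null-KYSE450, and FADS2 had 674, 436 and 347 against 1031, 739 and 749. Both were higher in every library of the clone than in any parental library, as were 28.4% of all tested genes. Log2 fold changes were 0.48 for FADS1 (standard error 0.12, limma adjusted p = 0.0054) and 0.83 for FADS2 (standard error 0.21, 95% confidence interval 0.36 to 1.29, limma adjusted p = 0.0066). FADS2 had the widest interval of the 10 genes and its highest parental library came close to the lowest library of the clone. The FADS1 call held in all 16 other settings, and the FADS2 call was lost in 1, with limma adjusted p = 0.055 when the spread was not modelled on the mean level. The ratio of FADS1 to FADS2 was 6.44, 9.59 and 10.3 in KYSE450 and 6.44, 6.82 and 7.0 in KEAP1null-KYSE450, and these overlapped (log2 difference -0.35, exact permutation test, two-sided p = 0.3).

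Both desaturase genes share 1 locus of chromosome 11. FADS1 (61799627 to 61829318, minus strand) and FADS2 (61792980 to 61867354, plus strand) overlap in their gencode gene models. The RefSeq start sites, which lie within the promoters printed above, are 800 bases apart, at 61817003 for FADS1 and 61816203 for FADS2. FEN1 also lies within the span of FADS2, on the same strand, at 818% of the FADS2 level and with a log2 fold change of -0.28. Because the use of strand in counting is not stated, reads of FADS1 and FADS2 in shared stretches cannot be told apart. In any stretch shared by FADS2 and FEN1, strand would not separate the reads either. The values of FADS1 and FADS2 are uncertain to that extent. FADS3, the next desaturase gene of the locus, was lower in the clone, with a log2 fold change of -0.34 (limma adjusted p = 0.043), and is named here for its position, with its values known.

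ACSL3, an acyl-CoA synthetase of the endoplasmic reticulum and lipid droplets, lies on chromosome 2 (222860942 to 222944639, plus strand). Its normalized counts were 9990, 9419 and 8433 in KYSE450 and 7933, 6071 and 5795 in KEAP1null-KYSE450. The lines did not overlap, and library 1 of the clone came nearest to the parental range. ACSL3 was at a log2 fold change of -0.50 (standard error 0.12, limma adjusted p = 0.0045), and the call was lost on the recovered reads of 4 libraries, with adjusted p = 0.14 in edgeR and 0.10 in DESeq2. The 7 tested genes within 1000000 bases of ACSL3 had a median log2 fold change of -0.56 and 6 of them were negative. For ELOVL5 the 21 neighbours had a median of 0.43, the opposite sign from the gene itself. Neighbours of the other 8 genes had medians between -0.23 and 0.31.

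**Figure D3:**
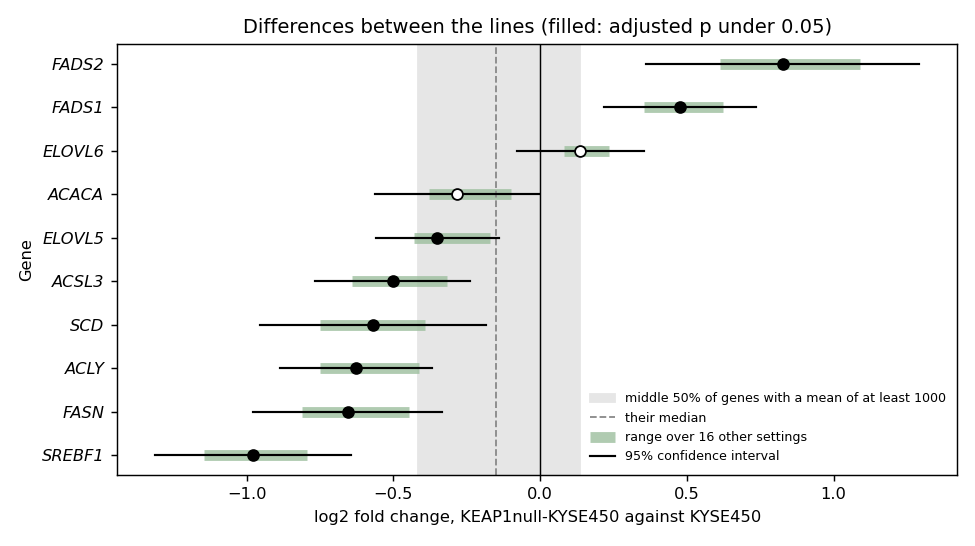
Log2 fold change of the 10 fatty acid genes in KEAP1null-KYSE450 against KYSE450 (points, filled where the adjusted p was under 0.05) with 95% confidence intervals (lines) and the range over 16 other settings (green bars). The grey band holds the middle 50% of the highly expressed genes, from -0.42 to 0.14, and SREBF1 at -0.98 and FADS2 at 0.83 lie farthest from it.

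To compare levels between genes, normalized counts were divided by the length of the main transcript in kb. SCD was the most abundant in KYSE450 at 11403 ± 2774 per kb (SD, n = 3), followed by ACLY at 6234 ± 608, and neither overlapped the gene after it. FASN (3493 ± 927), ELOVL5 (3140 ± 120) and SREBF1 (2934 ± 699.9) came next and overlapped one another. ACSL3 (1664 ± 141) overlapped ACACA (1308 ± 232). FADS1 stood at 925 ± 90.8, ELOVL6 at 268 ± 11.8 and FADS2 at 157 ± 54.7 per kb. In KEAP1null-KYSE450 the order began with SCD (7646 ± 1653), ACLY (4050 ± 608), ELOVL5 (2470 ± 241) and FASN (2171 ± 120), none of which overlapped its neighbour. SREBF1 (1471 ± 205), FADS1 (1292 ± 199), ACSL3 (1183 ± 209) and ACACA (1070 ± 130) followed, each overlapping the next, and ELOVL6 (295 ± 21.6) overlapped FADS2 (272 ± 53.6). FADS1 thus moved from rank 8 to rank 6 of the 10 genes by main transcript, and from rank 8 to rank 7 where all exons were counted in the length. Summed over the 10 genes, the normalized counts made up 0.357%, 0.284% and 0.247% of the library total in KYSE450 and 0.244%, 0.192% and 0.190% in KEAP1null-KYSE450.

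Genes around the pathway were grouped in lists and are given by their counts. Among 14 tested regulators of SREBP-1 and of lipogenic transcription, 4 were lower and 0 higher in limma, with a median log2 fold change of -0.15, a share close to the 25.5% of all tested genes that were lower. INSIG2 and INSIG1, which retain SREBPs in the endoplasmic reticulum, had log2 fold changes of -1.03 and -0.32. SCAP, which escorts SREBPs to the site of cleavage, was at -0.44, and PPARGC1B, a coactivator of SREBP-1, was at -0.77. At an unadjusted p under 0.05 in limma, 5 regulators were lower and 2 higher, and edgeR and DESeq2 called 2 lower and 0 higher. After quantile normalization 2 were lower and 2 higher. The calls of SCAP and INSIG1 were lost in 8 and 12 of 16 other settings.

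Of 8 genes for acetyl-CoA, malonyl-CoA and NADPH, 4 were higher and 1 was lower, beside 24.3% and 25.5% of all tested genes. The median log2 fold change of the 8 was 0.58. Among those that rose were enzymes that reduce NADP to NADPH, namely PGD (2.18) of the pentose phosphate pathway, malic enzyme ME1 (1.53) and isocitrate dehydrogenase IDH1 (1.04). ACSS2, which makes acetyl-CoA from acetate, was lower at -0.68. PGD had normalized counts of 18513, 17124 and 16546 in KYSE450 and 86111, 73747 and 76159 in KEAP1null-KYSE450, with no overlap. The citrate carrier SLC25A1 (-0.04), ACACB (-0.02) and MLYCD (0.11) did not pass. The summed level of the 8 genes was 0.0869% to 0.0899% of the library total in KYSE450 and 0.288% to 0.315% in KEAP1null-KYSE450, while that of the 10 fatty acid genes was lower in the clone.

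Of 14 tested other enzymes of elongation and desaturation, 9 were lower and 1 was higher in limma, beside 25.5% and 24.3% of all tested genes, with a median log2 fold change of -0.41. On the recovered reads of 4 libraries, 4 were lower in edgeR and 6 in DESeq2. HACD2, a dehydratase of the elongation cycle, was at -0.89, and HSD17B12, a ketoreductase of that cycle, at -0.59. CYB5A (-0.87) and CYB5R3 (-0.50), which pass electrons to desaturases, were lower as well. ELOVL4, the elongase of very long chains, rose by a log2 fold change of 1.07, from 335 to 350 normalized counts in KYSE450 to 685 to 787 in KEAP1null-KYSE450. SCD5, the second human stearoyl-CoA desaturase, had a log2 fold change of 0.13 (limma adjusted p = 0.42) and is named as the paralog of SCD, with its values known.

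**Figure D4:**
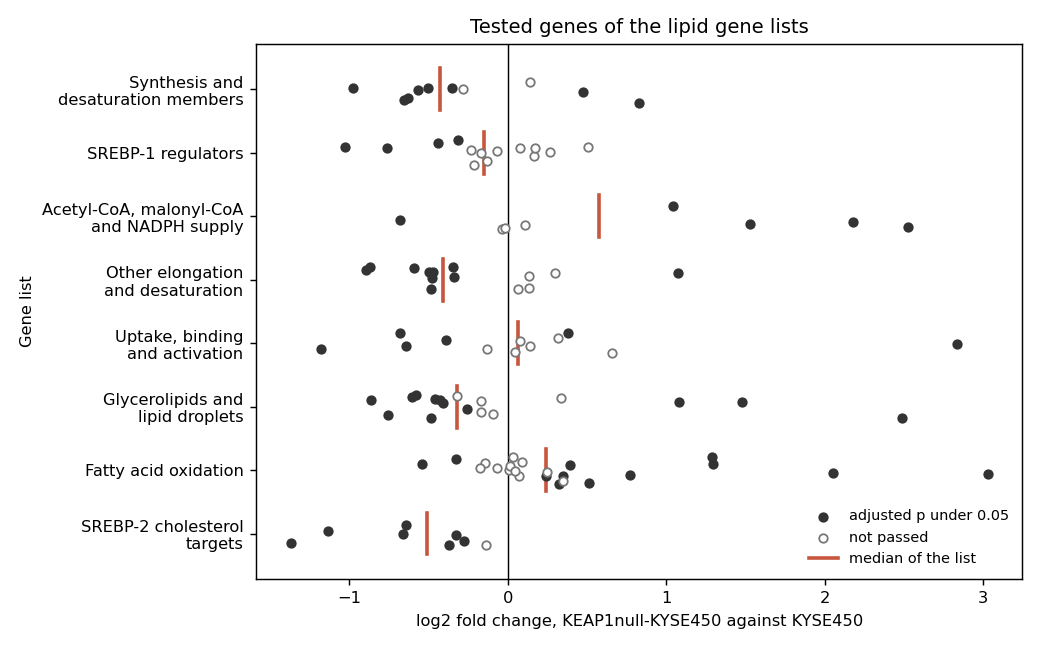
Log2 fold change in KEAP1null-KYSE450 against KYSE450 of every tested gene of 8 lipid gene lists, filled where the adjusted p was under 0.05, with the median of each list as a red bar. The medians run from -0.51 for the cholesterol genes and -0.43 for the 10 fatty acid genes to 0.58 for the supply of acetyl-CoA, malonyl-CoA and NADPH.

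Among 12 tested genes of fatty acid uptake, binding and activation, 4 were lower and 2 higher, with a median log2 fold change of 0.062, a share of called genes close to the 49.8% of all tested genes. The transporters SLC27A4 (-1.18) and SLC27A3 (-0.68), the synthetase ACSL4 (-0.64), which prefers arachidonate, and the binding protein FABP5 (-0.39) were lower. The FABP5 call was lost in 7 of 16 other settings. ACSL1 was higher at 0.38, in contrast to ACSL3 and ACSL4. ACSL5 was the other gene called higher, at 2.02 to 5.59 normalized counts in KYSE450 and 23.2 to 29.6 in KEAP1null-KYSE450, and was named after its values were seen.

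Of 17 tested genes of glycerolipid assembly and lipid droplets, 9 were lower and 3 higher in limma. All tested genes gave 25.5% lower and 24.3% higher. The median of the 17 log2 fold changes was -0.32, and 3 of the 17 were lower in edgeR and in DESeq2 on the recovered reads. LPIN1, a phosphatidate phosphatase, was at -0.86, the acyltransferases AGPAT1 and GPAT4 were at -0.76 and -0.58, and DGAT1, which completes triacylglycerol, was at -0.61. The GPAT4 and DGAT1 calls were lost in 3 and 2 of 16 other settings. GPAT3 (1.48) and DGAT2 (1.08) rose, so that the 2 DGAT enzymes moved in opposite directions. DGAT1 had normalized counts of 462, 361 and 352 in KYSE450 and 257, 283 and 226 in KEAP1null-KYSE450, and DGAT2 had 121, 141 and 102 against 351, 222 and 212. MGLL, the third gene called higher and named after its values were seen, stayed at or under 31.4 normalized counts in every library.

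Fatty acid oxidation had 10 genes higher and 2 lower of 23 tested in limma, with a median log2 fold change of 0.24. Among all tested genes 24.3% were higher and 25.5% lower, 49.8% in all. With a minimum mean of 100, 7 oxidation genes were higher and 2 lower. On the recovered reads of 4 libraries, edgeR and DESeq2 called 7 higher and 1 lower. CPT1A, which commits long chains to mitochondrial import, rose by a log2 fold change of 1.29, from 2678 to 3293 normalized counts in KYSE450 to 6869 to 8071 in KEAP1null-KYSE450. DECR1, needed for unsaturated chains, was at 0.77, the regulator PPARA at 0.51 and HADHB, a subunit of the trifunctional protein, at 0.39. PPARD was among those lower, at -0.54. The remaining 11 genes did not pass.

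Of 8 cholesterol genes driven by SREBP-2, 7 were lower and 0 higher in limma, beside 25.5% and 24.3% of all tested genes. The median log2 fold change of the 8 was -0.51. The synthesis enzymes LSS and SQLE were at -0.66 and -0.65. IDI1 alone did not pass (-0.14), and 0 were higher also at an unadjusted p under 0.05 in limma and in edgeR and DESeq2, which called 4 lower. Library 1 was the highest of its line in 5 of these 8 genes in KYSE450 and in 7 of 8 in KEAP1null-KYSE450. With library 1 of one line or the other left out, 7 of the 8 genes were lower in each case.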

How the data were processed

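RNA was sequenced from 3 libraries of KYSE450 cells and 3 libraries of KEAP1null-KYSE450 cells. The 10 genes, the other gene lists and the tests were chosen with earlier results of these data known. The values deposited by the authors are a signal for each gene in each library, the normalized count, in which reads were divided by a size factor. Per the study's methods and the submitters' processing notes, reads were trimmed with cutadapt (version 1.12), checked with FastQC (0.11.5), aligned to hg38 with STAR (2.6.90c) and counted per gene with featureCounts (1.5.1). Use of the strand in counting is not given in the sources used here. The table has 58884 rows with Ensembl identifiers, 273 of them without a symbol, and no column belonged to another sample. The study's methods name a RefSeq annotation, so the annotation used for counting is uncertain, and gencode overlaps and lengths may differ from it.

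The lines were compared by limma 3.58.1 in R 4.3.3, using lmFit and a two-sided eBayes test that models the spread on the mean level, after adding a pseudocount of 1 to each normalized count and taking log2. The fit covered the 16701 rows averaging 10 or more, with Benjamini-Hochberg adjustment. This scale understates the change of low genes. Call rules were an adjusted p under 0.05 alone, or together with a log2 fold change of 1 or more in size. From each list other than the 10 genes, the text names up to 4 called genes in each direction with the largest change that averaged 100 or more in the higher line, unless stated. Some genes that this rule picks are not reported here. Ratios were compared by exact permutation. In all 6 libraries, 100% of values were whole multiples of the smallest step, within 0.1 of a read. In 4 of them the step also lay far enough from 1 for reads to be taken as recovered, 53027400 to 61543400 per library. On these reads edgeR (4.0.16) called 2914 genes higher and 2472 lower at an adjusted p under 0.05, and DESeq2 (1.42.0) 2617 and 2732, beside 4060 and 4251 in limma on all 6 libraries. Intervals and the floor of 3 reads cover counting error only, or the spread between libraries. Positions came from gencode v44 of hg38 and promoters from RefSeq. The scripts were tested on simulated data. The fit was repeated with each library left out, with pseudocounts of 0.1 or 10, without a filter or with a minimum mean of 100, with libraries rescaled to equal totals, TMM factors or quantile normalization, and without the trend in eBayes.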

Additional observations from a re-analysis of the deposited data

How the results depend on the processing

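The calls of SREBF1, ACLY, FASN and FADS1 held in all 16 other settings, and ELOVL6 passed in none. The count of fatty acid genes lower was 3 in edgeR and in DESeq2 on the recovered reads of 4 libraries (6 in the main test), settings that changed the tool, the scale and the libraries together, and the count higher was 1 with eBayes without trend (2 in the main test). Leaving out 1 library gave 4 to 7 lower and 2 higher. The number past both thresholds ranged from 0 to 1. It was 1 without KYSE450 library 1 (FADS2), without KYSE450 library 3 (SREBF1) and without KEAP1null-KYSE450 library 1 (SREBF1). Among the other lists, edgeR and DESeq2 called 2 regulators, 6 glycerolipid and lipid droplet genes and 4 cholesterol genes, against 4, 12 and 7 in limma, and edgeR called 5 elongation and desaturation genes against 10. Leaving out 1 library left 2 to 4 regulators, with 2 both without KEAP1null-KYSE450 library 2 and without KEAP1null-KYSE450 library 3. Quantile normalization left 4 cholesterol genes. Over all genes, 875 passed both thresholds as higher at a mean of at least 100, where fewer genes were tested, against 2045 at a mean of at least 10. The sign of KEAP1 turned after rescaling to the same total (0.016), with TMM factors (0.0096), after quantile normalization (0.14), without KYSE450 library 1 (0.034) and without KEAP1null-KYSE450 library 2 (0.040), and leaving out 1 library gave -0.072 to 0.040. Apart from the smaller number of genes tested at a mean of at least 100, the cause was not tested.

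No paired analysis was possible because the columns carry no replicate number. With 3 libraries in a line, exact permutation cannot go below p = 0.1, outliers within a line were not tested, and 1 clone carries the whole comparison. Depth was not limiting for the 10 genes, the lowest value being 347 normalized counts of FADS2, while genes of the lists near the floor of 3 reads, such as ACSL5 and MGLL, rest on few reads. Counts per gene show mRNA levels only, and neither cleaved SREBP-1 nor lipids.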
